A study of Drosophila melanogaster with 4 samples.

Results

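Tight clusters of Hsp90 sites are stretches of the autosomes where 4 or more sites of the chaperone stood within 1000 bp of each other. Peaks of both Hsp90 ChIP-seq replicates that overlapped by at least 1 bp were merged on the arms 2L, 2R, 3L and 3R, and merged regions with a peak of each replicate were kept as shared sites. A cluster was a run of 4 or more shared sites with no gap over 1000 bp. The members described here are the sites of such clusters that were shorter than 3000 bp. They numbered 948 of 7151 shared sites on the 4 arms, or 13.3%, and of 9015 shared sites on all sequences. The members were chosen by the positions, lengths and gaps of the same peaks, so their values are given as a description, with no test.

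The chromatin came from DRSC-S2, a line of Drosophila melanogaster cells kept in culture, with no treatment named in the labels, and both replicates were biological replicates of this single condition. The antibody against Hsp90 was not a commercial one, and the 2 input samples, chromatin sequenced with no antibody, enter through the authors' values. The 2 Hsp90 libraries held 13383895 and 17401846 unique tags.

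Hsp90 is an ATP-driven chaperone that helps kinases, receptors and other client proteins to reach an active fold. It has also been found on chromatin, and the series title gives paused promoters as its targets. At a paused promoter RNA polymerase II has begun a transcript and waits a short way downstream, held by the negative elongation factor NELF until a kinase complex releases it. Pausing is common in Drosophila at heat-shock genes and at genes of development. Genes of the compact fly genome often lie close together, but gene starts of the build of the peaks (dm3) were not used here, and clusters are named by their coordinates.

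The clusters were short rows of separately called sites. There were 213 of them, with 1044 sites in all, and 120 held 4 sites, 44 held 5, 28 held 6 and 21 held 7 or more, up to 12. A cluster spanned a median of 7166 bp (quartiles 5410 and 9725 bp), of which its sites covered a median of 87.0%. All clusters together spanned 1.95 Mb. In 158 clusters every site was shorter than 3000 bp. The other 55 held 96 longer sites with a median length of 4171 bp, which are not members, and 1 of these clusters had no member at all.

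Gaps inside clusters were mostly far below the limit. Over the 831 gaps the median was 170 bp (quartiles 63.5 and 407.5 bp). A gap of at most 100 bp separated 292 neighbouring pairs (35.1%), and 165 pairs (19.9%) were more than 500 bp apart. Short gaps were not particular to clusters. Among all neighbouring autosomal sites under 3000 bp, clusters included, 665 pairs had gaps of at most 100 bp and 510 of 101 to 250 bp. A further 347 had gaps of 251 to 500 bp and 454 of 501 to 1000 bp. For neighbouring members the same classes held 236, 196, 127 and 140 pairs. Gaps of up to 50 bp made up 20.7%, shorter than the distance d, the fragment size that MACS estimated (111 bp in replicate 1 and 78 bp in replicate 2). Whether such gaps part separate sites was not tested. Summits, the positions of the highest signal, lie inside their sites, so by construction they stand further apart than the facing edges. The distance between the best summits of neighbouring sites had a median of 1441 bp in replicate 1 and 1469 bp in replicate 2. Between neighbouring members alone the median was 1326 bp in each replicate.

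**Figure D1:**
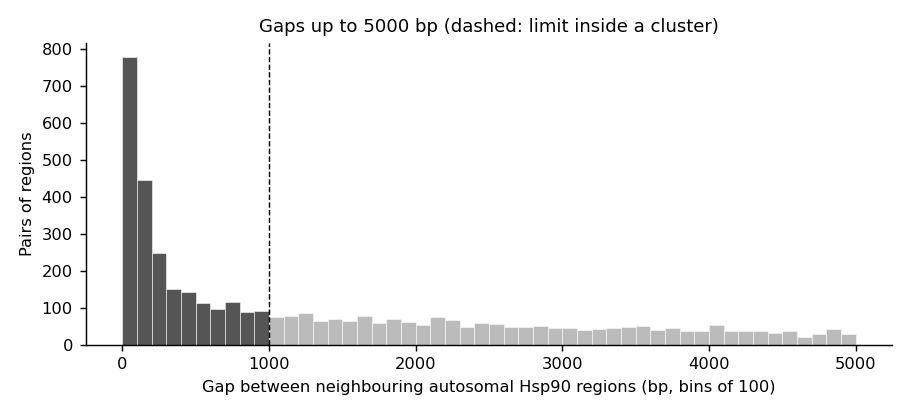
Number of pairs of neighbouring shared Hsp90 sites on 2L, 2R, 3L and 3R (vertical axis) by the gap between them in bins of 100 bp (horizontal axis, up to 5000 bp). Dark bars lie under the limit of 1000 bp that defines a cluster, and the bars are highest at the shortest gaps and fall steeply within the first 500 bp.

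The thresholds cut through a continuous range. The widest gaps inside a cluster were 992, 995 and 997 bp, and the narrowest gaps that ended one were 1005, 1029 and 1031 bp. The longest members measured 2984, 2986 and 2999 bp, and the shortest sites left out for their length measured 3002, 3052 and 3116 bp. Runs of 3 sites, just below the limit, held 729 sites under 3000 bp with median folds of 5.09 in replicate 1 and 5.11 in replicate 2, against 436 sites with 4.82 and 4.86 in runs of 4. The number of clusters depended on requiring both replicates. The same rule on the peaks of replicate 1 alone gave 422 clusters and 2180 members, and on those of replicate 2 alone 339 and 1619. Of the 948 members, 899 overlapped a clustered peak of replicate 1 alone and 792 one of replicate 2 alone, with 751 in both.

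Each member was in most cases a simple peak. In 815 members (86.0%) each replicate had a single peak, against 5958 of all 6722 autosomal shared sites under 3000 bp. The median member was 1059 bp long (quartiles 769.8 and 1571 bp) and held a median of 287 ChIP tags in replicate 1 (range 63 to 1789) and 390 in replicate 2 (range 73 to 2580). Together they held 339400 tags of replicate 1 and 442271 of replicate 2, which is 2.54% of the unique tags of each library. Where each replicate had 1 peak, the median distance between their summits was 30 bp (quartiles 13 and 68.5 bp), and it was at most 100 bp at 80.2% of such members. Over all autosomal shared sites under 3000 bp with 1 peak in each replicate, the median was 22 bp and the share 85.0%. Sites in runs of 3 were near the members, with 29 bp and 78.8%, and sites with no shared neighbour within 1000 bp had 19 bp and 87.7%.

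Median folds of clustered sites lay close to those of lone sites, while clustered sites were longer and held more tags. The fold enrichment is the authors' ratio of ChIP to the input background, taken at the highest-scoring peak of the site. In bulk chromatin a site bound in few cells and a site bound weakly in all cells cannot be told apart, nor can sites bound together in a cell and sites bound in different cells. The median fold of members was 4.96 in replicate 1 (quartiles 3.83 and 6.57) and 5.07 in replicate 2 (3.86 and 6.59). The 3311 lone sites under 3000 bp, those with no shared neighbour within 1000 bp, had medians of 5.21 (4.09 and 6.60) and 5.26 (4.29 and 6.62). Members thus lay 0.22 ± 0.05 lower (SD, n = 2 replicates), a small part of the spread among sites. The sign of this difference depended on the smallest cluster counted: in clusters of 5 or more sites the median was 0.0575 above that of lone sites. It did not follow cluster size. Runs of 6 lay above lone sites in both replicates (5.41 and 5.36), and runs of 7 or more below in both (5.05 and 5.18). Runs of 5 lay above in replicate 1 (5.25) and below in replicate 2 (5.175). With the peaks of replicate 1 alone members lay 0.43 below lone peaks, and with those of replicate 2 alone 0.19 below.

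Tags were compared as normalised tags, the number per 1000000 unique tags of the library. The median member held 21.4 normalised tags in replicate 1 and 22.4 in replicate 2, against 16.4 in each replicate at lone sites. Sites in pairs had medians of 18.8 and 18.6, and sites in runs of 3 had 21.1 and 21.0. Lone sites were also shorter, with a median of 882 bp against 1059 bp. Sites in pairs had a median of 992.5 bp, and those in runs of 3 had 1056 bp, close to the members. Per kb of peak, the medians were 21.1 and 22.3 normalised tags in members and 19.5 and 21.7 at lone sites. An even spread of tags over the effective genome size of 121 Mb used by MACS would give 8.26. The medians were 2.56 and 2.70 times that level in members and 2.36 and 2.63 times at lone sites. Peaks are called for their many tags, so medians above that level follow from how the sites were chosen.

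**Figure D2:**
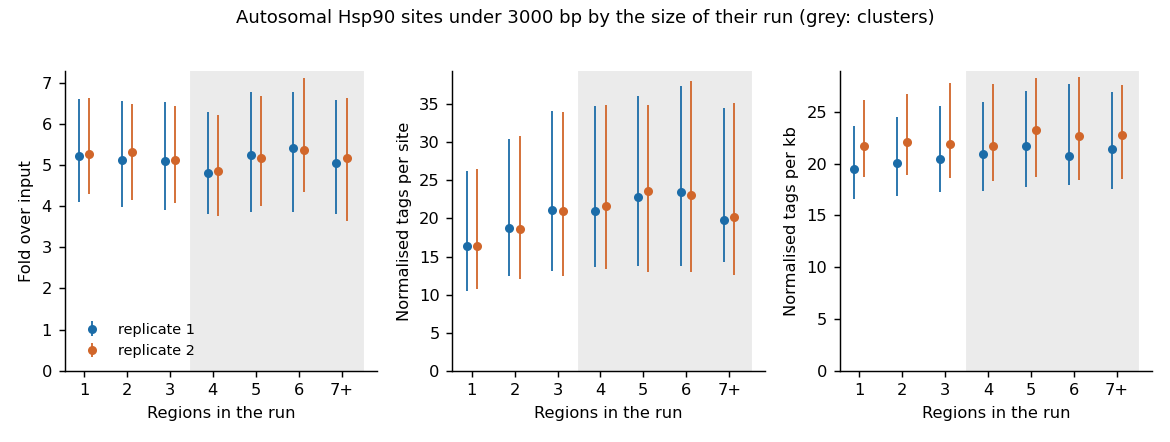
Median (points) and interquartile range (bars) over autosomal Hsp90 sites under 3000 bp of the fold over input, the normalised tags per site and the normalised tags per kb, by the number of sites in the run; blue is replicate 1 and orange replicate 2, and grey marks the clusters. Folds stay between 4.82 and 5.41 for runs of every size, while normalised tags per site are lowest, at 16.4, for lone sites.

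The comparison of members with lone sites turned with length. Among sites under 800 bp, the 263 members had median folds of 4.49 and 4.74, and the 1398 lone sites 5.08 and 5.26. From 800 to 1500 bp the 427 members had 4.81 and 4.98, against 5.23 and 5.22 at 1345 lone sites. From 1500 bp to the length limit members were higher, with 5.93 and 5.57 at 258 members against 5.52 and 5.45 at 568 lone sites. The turn was not particular to clusters. Runs of 3 had 4.48 and 4.75 under 800 bp, and 5.70 and 5.74 from 1500 bp up. Pairs had 4.64 and 4.88 under 800 bp, and 5.865 and 5.72 from 1500 bp up. Low folds were more frequent among members than among lone sites, and the shares of high folds were close. A fold under 4 in both replicates was found for 197 members (20.8%) and 424 lone sites (12.8%), while a fold above 6 in both was found for 240 members (25.3%) and 808 lone sites (24.4%). Runs of 3 lay near the members with 18.8% under 4, and pairs between them and lone sites with 15.2%.

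The authors' false discovery rate gave the replicates very different standing. It was under 5% for 123 members in replicate 1, or 13.0%, where 8.33% of all autosomal shared sites under 3000 bp passed. In replicate 2 it was under 5% for 672 members, or 70.9%, where 66.3% of those sites passed. At lone sites the shares were 5.80% and 64.4%, and in runs of 3 they were 12.8% and 68.6%, near those of members. The score, 10 times the negative log10 of the authors' p-value, had medians of 302 and 388 in members against 203 and 272 at lone sites and 289 and 361 in runs of 3. In replicate 1 the rate did not fall steadily with the score: members with scores of 1233 and 3100 had rates of 3.74% and 8.33%. The shares under 5% in replicate 1 are thus not shares of the sites with the highest scores.

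Within a cluster, neighbouring sites kept intensities of their own. Of the 207 clusters with at least 2 members, the fold of the strongest member over that of the weakest was 2.10 in replicate 1 and 2.12 in replicate 2 (medians over clusters). The range reached 1.5-fold in both replicates in 154 clusters and 2-fold in both in 88. The SD of the log2 fold among members of the same cluster was 0.51 in replicate 1 and 0.50 in replicate 2, close to 0.53 and 0.52 over all members. The cluster a member belonged to accounted for 8.25% of the variance of the log2 fold in replicate 1 and 7.49% in replicate 2. By contrast, the SD of the log2 fold of one member between the replicates was 0.21.

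The order of sites in a cluster was largely the same in both replicates. The member with the highest fold was the same in 133 of the 207 clusters (64.3%, exact 95% binomial interval 57.3 to 70.8%) and the member with the lowest in 146 (70.5%, 63.8 to 76.6%), where 1 over the number of members averages 24.0%. These intervals treat the clusters as independent and cover the counting of clusters only. They do not measure the spread between replicates. In the 104 clusters with 4 members, sites ranked by replicate 1 from strongest to weakest had median folds of 6.28, 5.33, 4.56 and 3.51 in replicate 2. Ranked by replicate 2, they had 6.51, 5.31, 4.50 and 3.66 in replicate 1.

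**Figure D3:**
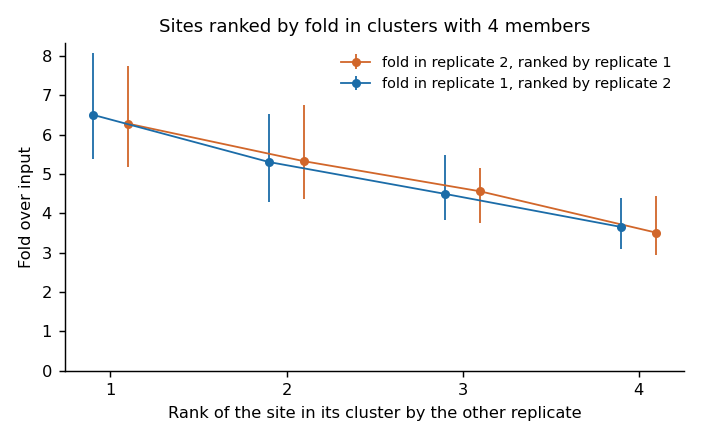
Fold over input (vertical axis) of the 4 sites of clusters with 4 members (n = 104 clusters), ranked from strongest (1) to weakest (4) by the other replicate; points are medians and bars interquartile ranges. The fold falls from 6.28 to 3.51 in replicate 2 and from 6.51 to 3.66 in replicate 1.

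Neighbours resembled each other little. Across the 699 pairs of neighbouring members the folds correlated with a Spearman rho of 0.11 in replicate 1 and 0.10 in replicate 2, whereas the folds of the same member in both replicates correlated with a rho of 0.83 (n = 948). Between replicates the rho was 0.76 at lone sites, 0.80 in runs of 3 and 0.79 over all autosomal shared sites under 3000 bp. These are descriptions across sites, which share their libraries, and neighbours share the local input background as well. The weaker site of a neighbouring pair had a median fold of 4.04 and the stronger 6.24 in replicate 1, and 4.19 and 6.21 in replicate 2. Which of the neighbours was higher was mostly the same in both replicates. Over all 699 pairs the order was the same in 564 (80.7%) and opposite in 133. Where neighbours were at least 1.5-fold apart in replicate 1, the same one was higher in replicate 2 in 285 of 300 pairs (95.0%). In 211 pairs the same site was at least 1.5-fold higher in both replicates, and in 0 pairs did the replicates differ by that much in opposite ways.

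**Figure D4:**
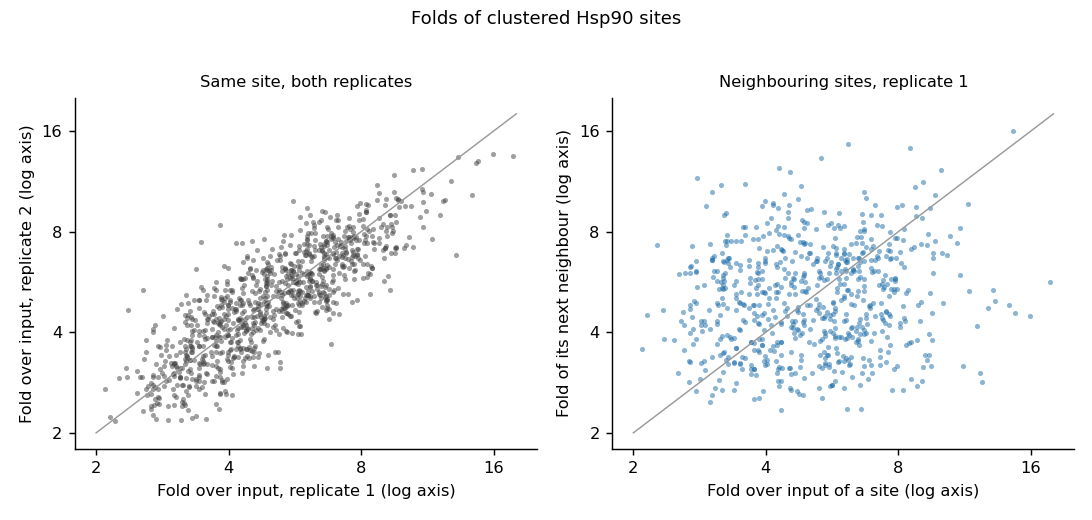
Left, fold over input of each of the 948 members in replicate 1 and replicate 2 (log axes); right, fold of a member and of its next neighbour in the same cluster in replicate 1 (699 pairs, log axes), with lines of equal fold. Points on the left follow the line (rho 0.83) and points on the right scatter widely around it (rho 0.11).

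The correlation was weak at every gap width. For members at most 100 bp apart the rho between neighbours was 0.17 in replicate 1 and 0.15 in replicate 2 (236 pairs), and for those 501 to 1000 bp apart 0.18 in both (140 pairs). At gaps of 101 to 250 bp it was 0.01 and -0.01 (196 pairs). Over all autosomal sites under 3000 bp the rho was 0.17 and 0.15 at gaps of at most 100 bp (665 pairs). It was 0.11 and 0.12 for 101 to 250 bp (510 pairs) and 0.11 and 0.16 for 501 to 1000 bp (454 pairs). For 2001 to 5000 bp it was 0.01 and 0.03 (1199 pairs), and for the next class, up to 10000 bp, 0.06 and 0.10 (875 pairs). Among these sites the rho was highest at the shortest gaps in replicate 1 and at 501 to 1000 bp in replicate 2. It did not fall steadily with distance in either replicate, and a trend was not tested. High and low sites followed each other in many ways: of 492 members with a member on each side, 116 (23.6%) were higher than both neighbours in both replicates and 120 (24.4%) were lower than both.

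Place in the cluster was not tied to a large difference. The 196 first members had median folds of 4.99 and 5.21, the 199 last members 5.09 and 5.15, and the 553 inner ones 4.87 and 4.96. Summits of first and last members lay slightly towards the cluster. Their median place from the left edge was 55.3% of the length in first members and 48.0% in last members in replicate 1, against 50.4% in inner ones. In replicate 2 it was 55.2% and 47.4%, against 52.8% in inner members. In clusters of members alone, the site with most tags held a median of 36.7% of the cluster's tags in replicate 1 and 37.5% in replicate 2.

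Members beside a long site were weaker by fold. The 93 members whose immediate neighbour in the cluster was 3000 bp or longer had median folds of 4.18 in replicate 1 and 4.20 in replicate 2. The 94 other members of such clusters had 4.83 and 5.12, and the 761 members of clusters with no long site had 5.12 and 5.17. Normalised tags per kb had medians of 21.8 in each replicate beside a long site and 20.9 and 22.4 in clusters with none.

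The arms held unequal shares of the members. On 2L 281 of 1638 shared sites were members (17.2%), on 3L 257 of 1751 (14.7%), on 2R 194 of 1742 (11.1%) and on 3R 216 of 2020 (10.7%). Per Mb of the span covered by sites this made 12.6, 10.6, 9.19 and 7.75 members. With replicate 1 alone the order per Mb was the same, with 26.0, 22.8, 21.6 and 21.1 members. With replicate 2 alone 2L (19.6) and 3L (18.6) again came before 3R (15.0) and 2R (14.8). Median folds of members lay between 4.81 on 3L and 5.35 on 2R in replicate 1, and between 4.90 on 2L and 5.26 on 3L in replicate 2, so the arms had no common order in the replicates.

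Some clusters stood close to others. The median distance from a cluster to the next on its arm was 225 kb, but in 34 of 209 neighbouring pairs it was at most 20 kb. The longest chain of such clusters, picked after its values were seen, lay on 2L from 12454954 to 12546982. There 7 clusters with 35 sites, 34 of them members, followed each other over 92.0 kb. The median folds of these clusters ran from 3.45 to 5.56 in replicate 1 and from 3.21 to 6.19 in replicate 2.

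The cluster with most sites was on 3L from 10642227 to 10660257, where 12 members stood in 18031 bp with a median gap of 133 bp. Its median fold was 4.05 in replicate 1 and 4.43 in replicate 2. From left to right the folds in replicate 1 were 3.83, 4.27, 3.10, 3.70, 3.19, 6.54, 2.79, 5.46, 3.23, 6.02, 5.05 and 6.91. In replicate 2 the same sites had folds of 2.64, 4.36, 3.74, 5.42, 3.21, 7.76, 3.10, 5.53, 4.49, 7.62, 4.37 and 6.20. In both replicates sites 2, 4, 6, 8 and 10 stood above both of their neighbours, and the last site was among the strong ones. The strongest by the mean of the replicates was site 6, from 10648671 to 10650308, with 413 tags in replicate 1 and 650 in replicate 2. The weakest was site 7, from 10650348 to 10651159, only 39 bp further on, with 175 and 173 tags.

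**Figure D5:**
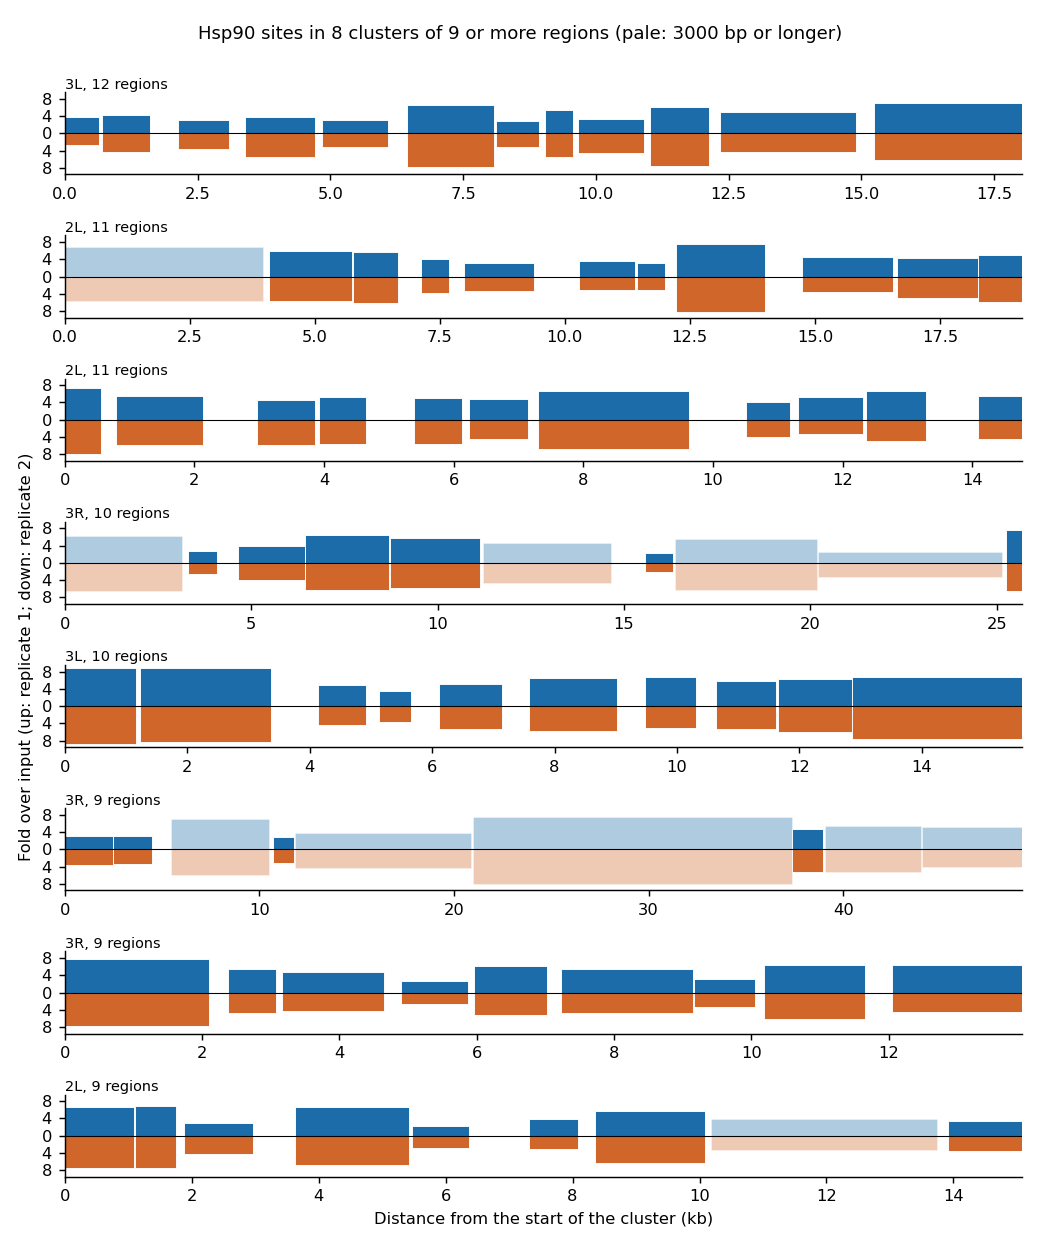
Hsp90 sites in 8 of the 10 clusters with 9 or more sites (ties at 9 sites taken by tags), drawn to scale by distance from the start of each cluster in kb; bar height is the fold over input, upward for replicate 1 (blue) and downward for replicate 2 (orange), and pale bars are sites of 3000 bp or longer. High and low bars of replicate 1 are mirrored in replicate 2 at most sites, as in the 12 sites of the first cluster.

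On 2L the cluster from 9175105 to 9189876 consisted of 11 members with folds of 3.99 to 7.34 in replicate 1 and 3.25 to 8.02 in replicate 2. Its strongest site was the first, from 9175105 to 9175661, with folds of 7.34 and 8.02. Site 9 had 5.24 in replicate 1 and 3.25 in replicate 2, where it was the weakest of the cluster, while site 8 was the weakest in replicate 1 with 3.99 against 3.92. The other cluster of 11 sites on 2L, from 8082277 to 8101426, began with a 3964 bp site and went on with 10 members. Its site 8, from 8094495 to 8096280, reached folds of 7.49 and 8.29, while site 7, 206 bp before it, had 3.23 and 3.07. A further cluster on 2L, from 8690359 to 8705445, held 9 sites, of which 8 were members with folds of 2.35 to 6.97 and 2.94 to 7.51. There sites 1, 2, 4 and 7 had folds of at least 5.76 in each replicate, and the remaining members at most 4.13.

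On 3L the cluster from 19888039 to 19903680 held 10 members with higher folds, their medians being 6.36 in replicate 1 and 5.61 in replicate 2. Its first sites were the strongest, with 8.77 and 8.81 for the first and 8.88 and 8.23 for the second. Site 4 was the weakest, with 3.42 and 3.65. A further pair of clusters on 3L held 9 sites each, all members, and fewer tags than the others of that size. From 14043635 to 14056505 the median folds were 4.32 and 4.99, with a range of 3.10 to 9.30 in replicate 1 and 3.16 to 8.41 in replicate 2. From 15580518 to 15591555 they were 6.24 and 7.22, with a range of 3.18 to 11.24 and 2.83 to 9.22.

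The cluster on 3R from 5902393 to 5916341 held 9 members with median folds of 5.56 and 4.83. Its first site had folds of 7.71 and 7.75 and its site 4 had 2.62 and 2.76. Long sites made up more of the other large clusters on 3R. The one from 5159833 to 5185520 held 10 sites, of which 6 were members with folds of 2.21 to 7.57 in replicate 1 and 2.17 to 6.53 in replicate 2. The one from 19133618 to 19182824 spanned 49207 bp with 9 sites, of which the widest measured 16377 bp, and its 4 members had median folds of 3.12 and 3.50. The largest cluster of 2R, from 5322616 to 5334574, had 7 sites, 6 of them members with folds of 2.36 to 6.11 and 2.67 to 6.80, around a 3439 bp site with 7.61 and 7.69.

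The clusters with the highest median folds held 4 or 6 members. On 2L from 16542944 to 16546146, 4 members stood in 3203 bp with folds of 6.14, 14.58, 15.96 and 4.46 in replicate 1 and 6.77, 12.84, 13.64 and 4.88 in replicate 2. The inner sites were the high ones in both replicates. The strongest, from 16544349 to 16545289, held 355 and 499 tags. On 3R from 628799 to 633852, site 3 of 4 members had folds of 13.29 and 13.38. The first, from 628799 to 629668, had 13.11 in replicate 1 and 6.80 in replicate 2, with 664 and 710 tags, or 49.6 and 40.8 normalised tags. On 3R from 14738224 to 14750613, 6 members had median folds of 7.95 and 9.21, of which site 5 had 3.16 and 2.46 and the others 7.66 to 11.00 and 8.27 to 12.30. On 2R from 16959230 to 16968374, folds went from 11.53 and 10.36 at the first of 6 members to 2.90 and 3.80 at site 5, while site 6 had 5.54 and 7.84.

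The lowest median folds belonged to clusters on 3L. From 229509 to 233144, 4 members had folds of 2.73, 3.70, 2.99 and 2.48 in replicate 1 and 2.20, 2.85, 2.71 and 2.63 in replicate 2, a narrow range in both. From 516355 to 528049, 5 of 6 members had folds of 2.67 to 3.94 in replicate 1 and 2.82 to 4.47 in replicate 2, and the last, from 526031 to 528049, had 6.68 and 6.71. In the other 2, most of the tags lay in long sites. The cluster from 758676 to 787810 had a single member, with folds of 3.29 and 3.01, beside sites of up to 14790 bp, and the one from 15523288 to 15537428 had 3 members with 6.71, 2.77 and 2.67 in replicate 1 and 8.13, 2.70 and 2.36 in replicate 2. A further cluster, from 536046 to 580462, had the same mean of its median folds as the one of 6 members, with 3 members at medians of 3.01 and 3.33.

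Some of the strongest members by mean fold, listed after their values were seen, shared clusters with weak ones. Others did not: of the 5 strongest, 2 were the inner sites on 2L from 16542944 to 16546146, where the weakest member had 4.46 and 4.88, and 1 was in the cluster on 3R from 628799 to 633852, where the lowest folds were 4.97 and 6.77. On 2R the site from 12465798 to 12466649 had folds of 17.67 and 13.48 with 456 and 513 tags. In the same cluster the site from 12469330 to 12470054 had 2.79 and 3.62 with 107 and 231 tags. On 3L the site from 18012680 to 18013227 had folds of 14.74 and 13.02, and site 3 of its cluster, from 18015629 to 18016110, had 2.69 and 2.94. These were among the widest ranges of fold within a cluster, with the strongest site 6.33 and 3.72 times the weakest in the first case and 5.48 and 4.43 times in the second. On 2R from 6451464 to 6460202, 6 members had folds of 12.77, 4.72, 9.99, 12.26, 3.01 and 6.60 in replicate 1 and 11.33, 4.55, 7.14, 9.90, 3.23 and 6.60 in replicate 2. The order of these 6 sites was the same in both replicates.

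The replicates disagreed at few members. On the log2 scale the fold in replicate 2 minus that in replicate 1 was -0.02 at the median member, with an SD of 0.30, against 0.03 and 0.32 at lone sites. A difference of less than 2-fold was found for 99.7% of members, close to the 99.6% of all autosomal shared sites under 3000 bp. The member furthest apart lay on 2R from 10461489 to 10462390, with folds of 3.83 and 8.38 and with 190 and 318 tags. Next came the site on 2L from 8952480 to 8953493, with 3.47 and 7.44, and that on 3L from 10691246 to 10692098, with 2.55 and 5.36. Each of these was higher in replicate 2, and each had a score near the low end of the list in replicate 1, between 54.93 and 102.5. Regions with peaks of a single replicate stood inside 26 clusters, 12 of replicate 1 with a median fold of 2.93 and 14 of replicate 2 with 3.69.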

How the data were processed

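Hsp90 ChIP-seq peaks of 2 biological replicates of DRSC-S2 cells were analysed. Reads were aligned with Bowtie to dm3 (BDGP5), per the submitters' processing notes. MACS called the peaks of each replicate with its matching input as control, at a p-value cutoff of 1e-05 and a tag size of 38 bp, per the file headers. The model fold was 6 and 4 and the estimated fragment size d 111 and 78 bp in replicates 1 and 2, and whether these affected peak widths was not tested. Duplicate handling beyond the headers' unique tags (13383895 and 17401846) is not given in the sources used here. The tags are whole-number counts per peak, deposited without normalization. The fold is a ratio of ChIP over input background, the score is 10 times the negative log10 of the p-value, and the false discovery rate is in percent, all by the authors. Positions and lengths, deposited in bp, are 1-based.

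Peaks were merged with an overlap of 1 bp. A shared site took the fold, score, rate and summit of its highest-scoring peak in each replicate and the sum of the tags. Normalised tags are tags per 1000000 unique tags, and tag density is normalised tags per kb of peak. Merging and clustering were tested on simulated lists. Intervals came from scipy 1.17.1 and figures from matplotlib 3.10.9, with pandas 2.3.3 and numpy 2.4.6 under Python 3.11.15. The members and lists were chosen with earlier results of these data known. Named clusters were the 8 with most sites (ties by summed normalised tags, which left out 2 clusters of 9 sites and a cluster of 7 sites on 2R), the largest of each arm, and the 4 with the highest and the 4 with the lowest median fold (a tie by position); others are said to be chosen after their values were seen. A genome or gene annotation of dm3 was not used here, so the planned look at sequence and gene starts was not run. The fold of the highest-scoring peak depends on the local input, which was not analysed here. PCR tags without molecular identifiers are not independent molecules, so tag numbers are not counts of molecules. The binomial intervals cover the counting of clusters only, with no error between replicates. No test between groups was possible with a single condition.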

Additional observations from a re-analysis of the deposited data

How the results depend on the processing

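No paired analysis was possible because the results come from no test, with a single condition and no group to pair with. How many clusters are counted depended most on the gap, the number of sites, the score and the use of both lists. In place of 213 clusters and 948 members, a gap of at most 500 bp gave 123 and 517, and one of 2000 bp 343 and 1640. At least 3 sites gave 477 and 1677, at least 5 gave 93 and 512, and the upper 50% of each list by score 51 and 199. Each replicate alone gave 339 to 422 clusters and 1619 to 2180 members. The mean of the replicates' median folds, 5.01, was 5.10 at 500 bp, 5.29 with at least 5 sites, 5.13 with no length limit, 6.25 with the higher-scoring peaks and 4.49 to 4.80 with a replicate left out. The difference from lone sites, -0.22, changed sign with at least 5 sites (0.0575). It was -0.14 at 500 bp, -0.29 at 2000 bp, -0.12 with no length limit, -0.27 with an overlap of 50% of both peaks, -0.06 with the higher-scoring peaks and -0.43 to -0.19 with a replicate left out. The median length, 1059 bp, was 1125 bp with no length limit, 1009 bp with the 50% overlap, 1224 bp with the higher-scoring peaks and 801 to 906 bp in a single list. The tag density, 21.7, was 26.6 with the higher-scoring peaks and 20.2 to 21.3 in a single list. The summit spacing, 1455 bp, was 1349 bp at 500 bp, 1736 bp at 2000 bp, 1337 bp with the 50% overlap, 1738 bp with the higher-scoring peaks and 1186 to 1317 bp in a single list. The share of clusters with the same strongest member, 64.3%, was 72.1% with at least 3 sites and 73.5% with the higher-scoring peaks, and the SD of the log2 fold ratio, 0.30, was 0.25 with the latter. The cause of these shifts was not tested. With the 50% overlap there were 164 clusters and 749 members, and with no length limit 213 and 1044. These and the other combinations of result and setting, 34 in all, stayed within 1.5 times for counts, within the SD between replicates for medians (for length, the SD of 30.1 bp between the lengths covered by each list), within the exact interval for the share and within 1.1 times for the SD of the log2 fold ratio.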

Other observations

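The same rule on the X chromosome gave 28 clusters with 146 members among 1357 shared sites (10.8%), with median folds of 5.38 in replicate 1 and 5.55 in replicate 2. The largest run on X held 15 sites, more than the 12 of the largest autosomal cluster. The difference between X and the autosomes was not tested.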
